A study of Drosophila melanogaster with 2 samples.

Results

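Aminoacyl-tRNA synthetase (aaRS) genes were examined for promoter peaks of the Pax-family regulator Pox neuro (Poxn), which is known for giving sense organs of the fly their type. Members were the protein-coding genes whose symbol holds a 3-letter amino acid code directly followed by RS, which gave 35 of the 13945 protein-coding genes on the chromosome arms. Of these, 15 had a symbol ending in -m, the mark of a mitochondrial enzyme, and the other 20 are called cytoplasmic here. The division was made by symbol alone, so a cytoplasmic gene may also supply mitochondria. Chromatin came from whole Drosophila melanogaster embryos aged 0 to 24 h of a Poxn-GFP strain that carries a Poxn-eGFP fusion, sonicated to 200 to 800 bp. The labels name both GFP (in the descriptions) and Poxn (under antibody) as the target of the antibody. With 2 biological replicates of a single group, no comparison between groups of samples was possible, and no test was made. The values describe all cells of the embryo together, and binding in few cells cannot be told apart from weak binding in many.

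Each aaRS joins 1 amino acid to its matching tRNAs, which then carry it to the ribosome, so these enzymes are needed in every cell. Cytoplasmic enzymes charge tRNAs for the proteins made from nuclear mRNAs, and mitochondrial enzymes, which are also encoded in the nucleus and imported, charge tRNAs for the proteins of the mitochondrial genome. In Drosophila the activities for glutamate and proline sit on a single cytoplasmic protein, GluProRS, and in the cytoplasm phenylalanine is joined by an enzyme of alpha and beta subunits.

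The deposited data were lists of peaks on dm6, each with a signal value. A thresholded list and a longer ranked list of candidates were given for each replicate, for the pair and for a conservative version of the pair. The 4 thresholded lists held 1488 peaks for the pair, 1353 for the conservative version, 800 for replicate 1 and 979 for replicate 2. The ranked lists held 146020, 144729, 104869 and 104909 candidates in the same order of lists. Read depth is unknown, and signal was compared only within a list.

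Promoter peaks were found at cytoplasmic aaRS genes and not at -m genes. In the pair list, 5 of 20 cytoplasmic genes (25%) and 0 of 15 -m genes had a thresholded summit no more than 500 bp from a transcription start site (TSS), against 7.74% of all protein-coding genes. Together this made 5 of 35 aaRS genes (14.3%). The 5 genes were GluProRS, SerRS, ThrRS, IleRS and AsnRS, which encode the synthetases for glutamate and proline, serine, threonine, isoleucine and asparagine.

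The other lists also had called genes among the cytoplasmic genes only. The conservative list had 4 of 20 cytoplasmic genes (20%), 0 of 15 -m genes and 7.15% of all protein-coding genes. Replicate 1 had 3 of 20 cytoplasmic genes (15%), 0 of 15 -m genes and 4.37% of all genes. Replicate 2 had 4 of 20 cytoplasmic genes (20%), 0 of 15 -m genes and 6.18% of all genes. GluProRS, SerRS and IleRS were in every list, ThrRS was in every list but that of replicate 1, and AsnRS was in the pair list alone. The groups are small, so that 1 gene makes up 5% of the cytoplasmic and 6.67% of the -m genes. The share of all genes was near or below that of 1 -m gene in each list. A count of 0 of 15 therefore cannot be told apart from the share of all genes. The lists also share reads, since the pair lists were made from both replicates.

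**Figure D1:**
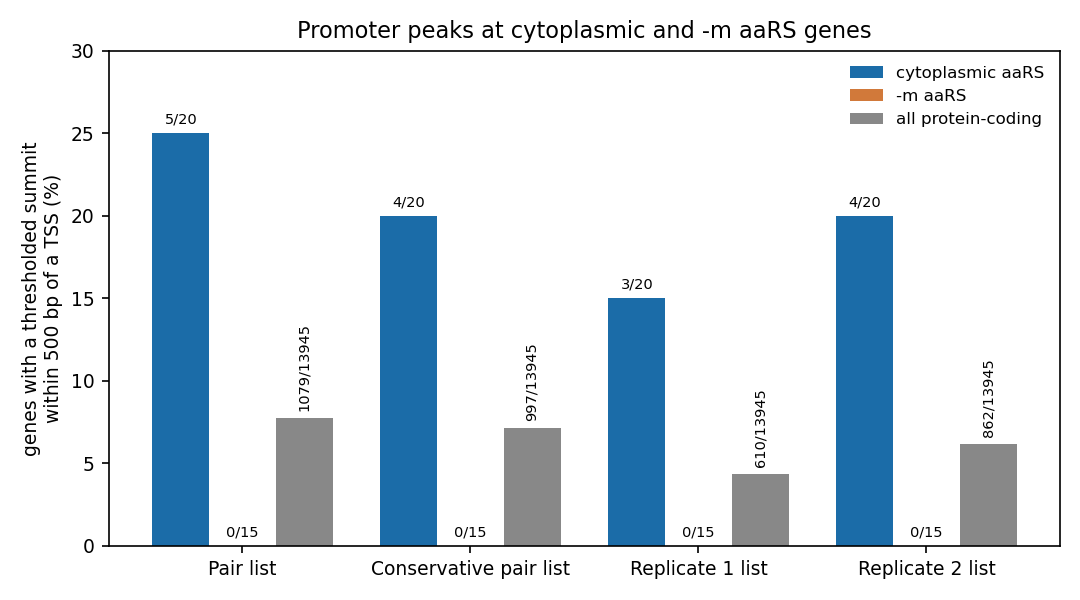
Percentage of genes with a thresholded summit within 500 bp of a TSS in each of the 4 lists (horizontal axis), for cytoplasmic aaRS genes, -m aaRS genes and all protein-coding genes. Numbers above the bars are genes with a summit over genes in the group. The cytoplasmic bars run from 15% to 25%, the -m bars are at 0 in every list, and the bars of all genes run from 4.37% to 7.74%.

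GluProRS had the strongest peak of the group. Its signal was 179.8 in the pair and conservative lists, 74.1 in replicate 1 and 104.6 in replicate 2, which placed it at rank 192 of 1488, 192 of 1353, 246 of 800 and 167 of 979. It thus lay in the upper part of every list. The reproducibility of a peak was given as the −log10 of the global irreproducible discovery rate (IDR), which is high for a peak found alike in both inputs of a list and was at least 2.0005 in every thresholded peak. For GluProRS it was 3.94 in the pair list, 4.04 in replicate 1 and 5.0 in replicate 2.

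SerRS came next. Its signal was 141.6 in the pair and conservative lists, 60.1 in replicate 1 and 87.9 in replicate 2, at ranks 299 of 1488, 299 of 1353, 356 of 800 and 238 of 979. Its −log10 IDR was 3.55 in the pair list, 3.40 in replicate 1 and 4.52 in replicate 2.

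ThrRS and IleRS were of middle strength. ThrRS had a signal of 98.7 in the pair and conservative lists and 58.9 in replicate 2, at ranks 530 of 1488, 531 of 1353 and 474 of 979. In replicate 1 it had a ranked candidate of signal 40.0, at the 93.6th percentile of genes with a candidate, with a −log10 IDR of 0.107, which is below the threshold. The replicates thus differed in the reproducibility of the ThrRS candidate more than in its place among all genes, since the percentile in replicate 2 was 94.8. IleRS had a signal of 86.8 in the pair and conservative lists, 42.9 in replicate 1 and 51.4 in replicate 2, at ranks 664 of 1488, 666 of 1353, 630 of 800 and 580 of 979, so it was lower in the list of replicate 1 than in the others.

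AsnRS was the weakest of the 5. Its peak in the pair list had a signal of 51.8, rank 1400 of 1488 and a −log10 IDR of 2.13, just above the threshold. The same candidate had a −log10 IDR of 1.69 in the ranked conservative list. The strongest AsnRS candidate of replicate 1 lay 96 bp upstream of the TSS, with a −log10 IDR of 0.0421. That of replicate 2 lay 49 bp upstream, with 1.16. The AsnRS call therefore rests on the pair list.

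The sequences under 4 of these peaks are shown because they hold the summits between aaRS genes and their neighbours. Each is given on the strand of its aaRS gene, from 100 bases before to 100 bases after the summit, less any annotated exon. The GluProRS stretch is shortened at its start by an exon of AP-1sigma and the AsnRS stretch at its end by an exon of AsnRS, while those of ThrRS and IleRS are whole. Capitals mark the TATA-box word TATAAA or its reverse complement wherever it occurs, at any distance from a TSS. A marked word is therefore not shown to be a TATA box. The window of SerRS is not shown, since its summit lay in the noncoding part of an exon of CG17260.
GluProRS, chr3R:23958462-23958650, minus strand: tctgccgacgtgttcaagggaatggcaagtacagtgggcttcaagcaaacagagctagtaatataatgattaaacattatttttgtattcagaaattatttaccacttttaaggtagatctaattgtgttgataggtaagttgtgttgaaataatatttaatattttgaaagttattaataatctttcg
ThrRS, chr2L:12103515-12103715, plus strand: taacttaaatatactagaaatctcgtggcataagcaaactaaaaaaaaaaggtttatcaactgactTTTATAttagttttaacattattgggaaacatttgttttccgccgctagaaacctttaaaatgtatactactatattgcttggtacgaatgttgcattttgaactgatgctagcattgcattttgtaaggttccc
IleRS, chr3L:22288375-22288575, plus strand: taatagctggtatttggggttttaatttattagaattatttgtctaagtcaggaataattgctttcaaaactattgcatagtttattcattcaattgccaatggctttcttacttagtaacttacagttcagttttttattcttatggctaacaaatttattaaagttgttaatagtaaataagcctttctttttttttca
AsnRS, chr2L:19131955-19132099, minus strand: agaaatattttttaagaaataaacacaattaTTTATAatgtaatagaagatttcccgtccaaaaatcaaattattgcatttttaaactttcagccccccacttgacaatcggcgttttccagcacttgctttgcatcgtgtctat
All 4 stretches are rich in A and T, with a GC content of 29.6% for GluProRS, 30.9% for ThrRS, 25.4% for IleRS and 31.7% for AsnRS.

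Every one of the 5 peaks lay at a head-to-head gene pair, in which an aaRS gene and a protein-coding neighbour start on opposite strands and are transcribed away from each other. The GluProRS peak (3R, 23958410 to 23958713) had its summit 171 bp upstream of the GluProRS TSS and 89 bp from the TSS of AP-1sigma, a clathrin adaptor subunit gene, and those TSSs were 260 bp apart. The peak thus lay nearer to the neighbour than to the aaRS gene. In replicate 1 and replicate 2 the GluProRS summit lay 160 and 170 bp upstream, so both were between the same TSSs.

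At SerRS the start sites nearly coincided. The SerRS and CG17260 TSSs were 8 bp apart, and the pair-list summit (peak at 2L, 3037261 to 3037564) lay 10 bp upstream of the SerRS TSS and 2 bp from that of CG17260. The summit was 51 bp upstream of the SerRS TSS in replicate 1 and 29 bp downstream in replicate 2, so the replicates fell on opposite sides of the TSS. A peak 304 bp wide cannot be given to either gene there.

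The other 3 summits were nearer to the aaRS gene. The ThrRS summit (peak at 2L, 12103463 to 12103766) lay 136 bp upstream of ThrRS and 330 bp from the TSS of Patsas, in the pair list. The IleRS summit (3L, 22288323 to 22288626) lay 190 bp upstream of IleRS and 280 bp from the TSS of Hem, a subunit gene of the SCAR actin-regulating complex. The AsnRS summit (2L, 19131847 to 19132150) lay 45 bp upstream of AsnRS and 324 bp from the TSS of DCTN6-p27, a dynactin subunit gene. For IleRS the summit lay 100 bp upstream in replicate 1 and 194 bp upstream in replicate 2. For ThrRS it lay 112 bp upstream in replicate 2. The ThrRS, IleRS, AsnRS and GluProRS summits were intergenic in the pair list. Over the 5 genes the median position was 136 bp upstream, with a range from 190 to 10 bp upstream.

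**Figure D2:**
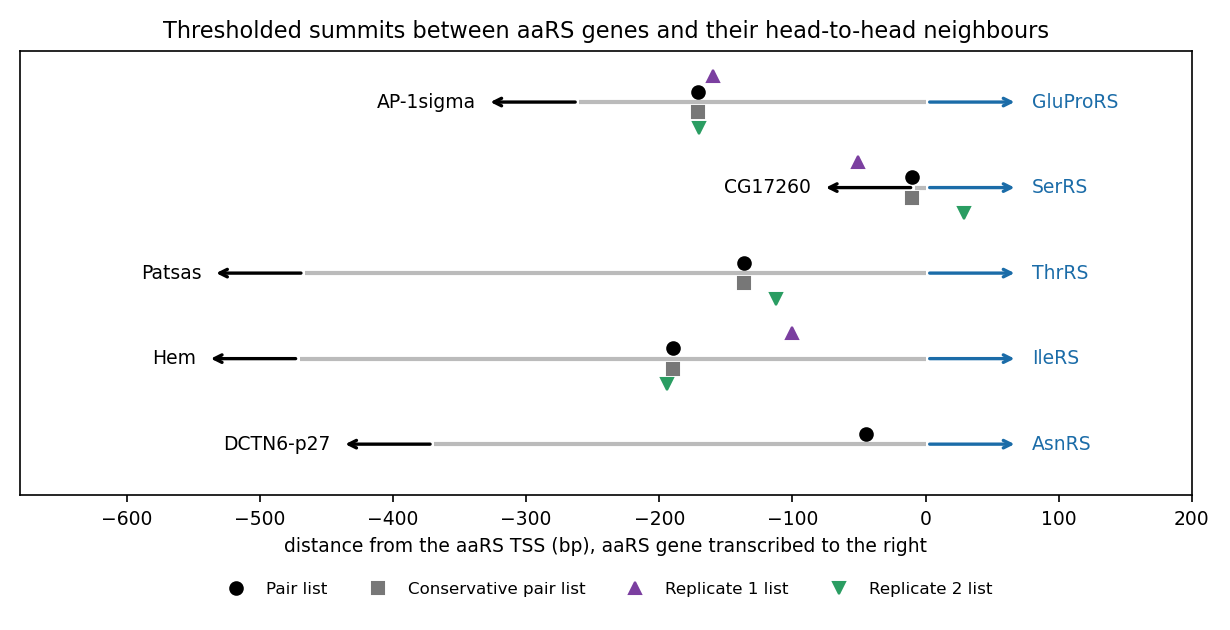
Positions of thresholded summits in bp from the TSS of the 5 aaRS genes with a peak (horizontal axis), drawn with each aaRS gene transcribed to the right and its head-to-head neighbour to the left. Circles stand for the pair list, squares for the conservative list, upward triangles for replicate 1 and downward triangles for replicate 2. The summits lie between both TSSs, apart from those at SerRS, where the TSSs are 8 bp apart and the summits lie from 51 bp upstream to 29 bp downstream.

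Head-to-head arrangement was common among aaRS genes. A protein-coding neighbour started upstream on the other strand within 1000 bp at 17 of 20 cytoplasmic genes (85%) and at 7 of 15 -m genes (46.7%), against 36.2% of all protein-coding genes. The median distance between the TSSs was 260 bp for the cytoplasmic genes, 166 bp for the -m genes and 298 bp for all genes with such a neighbour. The 5 genes with a peak all had such a neighbour. None of the 11 aaRS genes without a neighbour (3 cytoplasmic, 8 -m) had a peak. Among all protein-coding genes a thresholded summit was present at 14.2% of those with a head-to-head neighbour and at 4.05% of those without. Among aaRS genes with a neighbour, the cytoplasmic share was thus 5 of 17 and the -m share 0 of 7. A count of 0 of 7 cannot be told apart from the 14.2% of all genes with a neighbour.

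The cytoplasmic genes without a peak ranged widely in their strongest ranked candidate. A candidate within 500 bp was present at 16 of 20 cytoplasmic genes (80%) and 11 of 15 -m genes (73.3%) in the pair list, against 77.6% of all protein-coding genes. The share with a candidate was thus close to that of all genes in both groups. Of all genes with a candidate, 9.97% had a thresholded summit.

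Among genes with a candidate, each gene was given a percentile by its strongest one. The median was the 79.8th percentile for cytoplasmic genes (range 1.34 to 98.2) and the 37.4th for -m genes (range 2.73 to 66.7), against 50 for all genes by construction. The order was the same in the other lists, with medians of 80.3 for cytoplasmic and 41.0 for -m genes in the conservative list, 73.4 for cytoplasmic and 46.9 for -m genes in replicate 1, and 76.1 for cytoplasmic and 44.5 for -m genes in replicate 2. Over all genes the pair-list median was 60.8 with a head-to-head neighbour and 45.0 without. With a neighbour it was 81.7 for 13 cytoplasmic and 44.85 for 6 -m genes. Without one it was 6.46 for 3 cytoplasmic and 34.1 for 5 -m genes. A larger share of cytoplasmic than of -m genes had a neighbour, and the part of this arrangement in the gap was not tested. Leaving out the 5 called genes removes the highest cytoplasmic genes and no -m gene, and so lowers the cytoplasmic median by construction. Without them, the cytoplasmic median was 69.8 against 37.4 for -m genes in the pair list and 61.0 against 41.0 in the conservative list. It was 40.6 against 46.9 in replicate 1 and 26.3 against 44.5 in replicate 2. The remaining cytoplasmic genes thus had the higher median in the pair and conservative lists and the lower one in each replicate. The genes with a candidate differed between lists, with 11 such cytoplasmic genes in replicate 1 and 7 in replicate 2.

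Highest among the genes without a peak stood the synthetase genes for leucine, valine, histidine, arginine and aspartate. LeuRS had a pair-list candidate with a signal of 41.5 (83.3rd percentile), ValRS 39.6 (81.7th), HisRS 38.4 (80.5th), ArgRS 36.9 (79.2nd) and AspRS 34.7 (76.2nd). Their −log10 IDR ran from 0.316 for ValRS to 0.949 for ArgRS, against 2.13 for AsnRS, the weakest gene inside. The replicates did not give them alike. LeuRS stood at percentile 83.8 in replicate 1 and 7.71 in replicate 2, while ValRS and ArgRS had candidates in replicate 1 (87.8th and 82.7th percentile) and none in replicate 2. AspRS had none in replicate 1 and stood at the 80.1st percentile in replicate 2. For HisRS the percentiles were 68.5 in replicate 1 and 54.6 in replicate 2. These 5 genes also had a head-to-head neighbour, from 38 bp away (Lfg, at AspRS) to 561 bp away (CG6470, at HisRS).

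At the low end, CysRS had a signal of 4.76 (1.34th percentile), LysRS 4.92 (1.47th) and PheRS-m 6.38 (2.73rd) in the pair list. Both subunits of the cytoplasmic phenylalanine enzyme were also low in that list, with 9.49 for beta-PheRS (6.46th percentile) and 9.42 for alpha-PheRS (6.28th). The low places did not all hold in the other lists. The percentile of beta-PheRS was 52.25 in the conservative list, 13.8 in replicate 1 and 26.3 in replicate 2. PheRS-m stood at 52.55 in replicate 1, CysRS at 9.48 and LysRS at 21.95, and none of these 3 had a candidate in replicate 2. GlyRS, TyrRS and TrpRS-m, the synthetase genes for glycine, tyrosine and mitochondrial tryptophan, had no candidate in any ranked list.

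**Figure D3:**
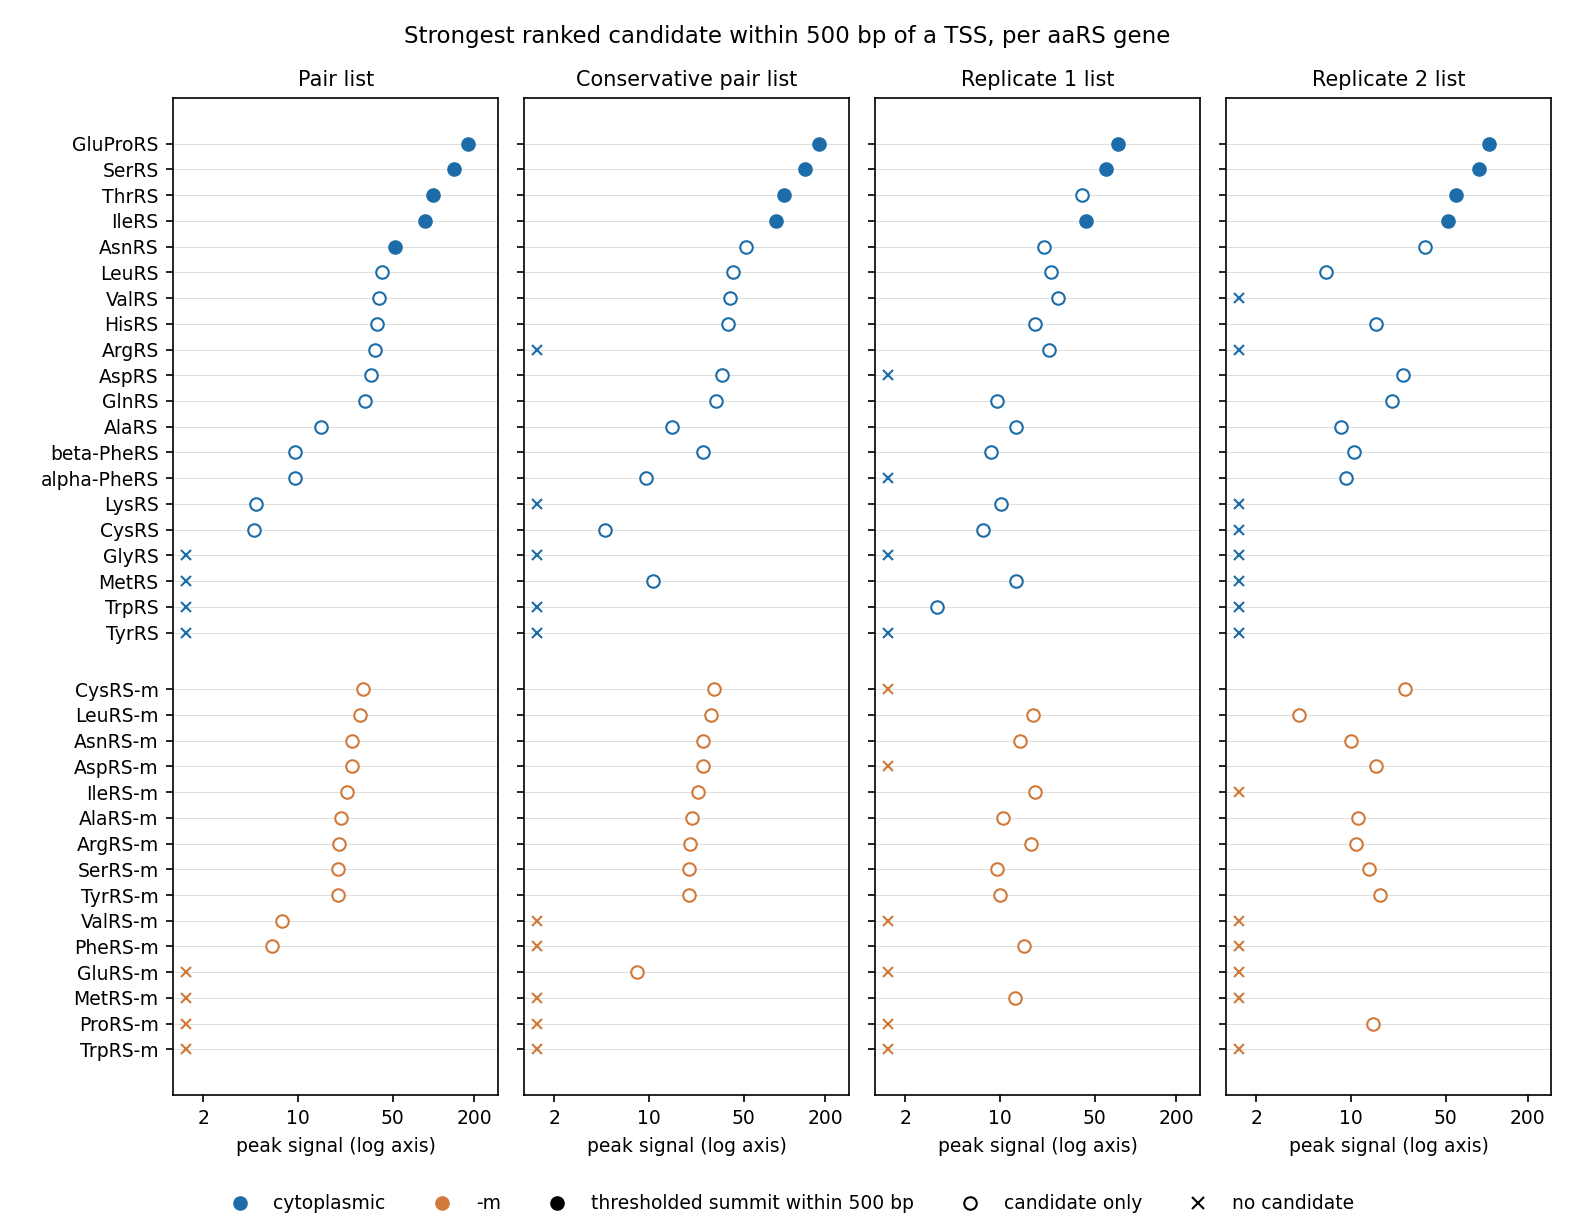
Signal of the strongest ranked candidate within 500 bp of a TSS for each of the 35 aaRS genes (rows) in the 4 ranked lists (panels), on a log axis, cytoplasmic genes above -m genes and ordered by the pair list. Filled circles are genes with a thresholded summit there, open circles are candidates only and crosses mark genes with no candidate. The filled circles are all at cytoplasmic genes, from 51.8 to 179.8 in the pair list, and the -m genes reach at most 30.1 there.

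No -m gene had a thresholded promoter summit in any list. Their strongest pair-list candidates were at CysRS-m (signal 30.1, 66.7th percentile) and LeuRS-m (28.5, 62.3rd), which charge mitochondrial tRNAs with cysteine and leucine. CysRS-m had no candidate in replicate 1 and stood at the 81.1st percentile in replicate 2, the highest of any -m gene in any list. LeuRS-m stood at the 65.9th percentile in replicate 1 and the 2.11th in replicate 2. Candidates at GluRS-m, MetRS-m, ProRS-m and TrpRS-m were absent from the pair list.

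LeuRS-m was the only aaRS gene whose nearest pair-list summit lay between 500 and 2000 bp from its TSS. It lay 861 bp upstream of LeuRS-m, within an intron of Dhc64C, the cytoplasmic dynein heavy chain gene, 695 bp from the Dhc64C TSS. Its signal was 178.8 in the pair and conservative lists, 76.1 in replicate 1 and 100.3 in replicate 2, so it was in every list and close to GluProRS in strength. The next nearest summit to an aaRS gene without a promoter peak was 2578 bp upstream of AlaRS. No pair-list summit lay inside an aaRS gene more than 500 bp from its TSSs. The nearest pair-list summit was a median of 7966 bp away for cytoplasmic genes and 10570 bp away for -m genes. Without the 5 genes with a peak, the cytoplasmic median was 23840 bp. Leaving them out removes the nearest cytoplasmic genes and no -m gene, and so raises the cytoplasmic median by construction. The remaining genes therefore cannot be compared fairly with the -m genes.

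The sequence of the LeuRS-m upstream peak is shown beside that of a -m gene without a peak, IleRS-m, whose cytoplasmic counterpart is given above. The IleRS-m stretch ends at its TSS, and capitals again mark TATAAA or its reverse complement.
Peak upstream of LeuRS-m, chr3L:4824892-4825092, plus strand: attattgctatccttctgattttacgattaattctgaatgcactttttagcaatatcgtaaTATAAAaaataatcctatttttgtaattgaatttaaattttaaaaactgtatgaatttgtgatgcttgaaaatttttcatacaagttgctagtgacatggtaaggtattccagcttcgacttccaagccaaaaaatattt
Upstream of IleRS-m, chr3L:16100089-16100279, plus strand: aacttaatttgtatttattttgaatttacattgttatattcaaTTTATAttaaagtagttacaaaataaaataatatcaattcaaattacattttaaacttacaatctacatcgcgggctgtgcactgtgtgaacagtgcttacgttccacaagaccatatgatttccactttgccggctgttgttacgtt
Both are as rich in A and T as the peaks at cytoplasmic genes, with a GC content of 26.4% at the LeuRS-m upstream peak and 29.3% upstream of IleRS-m. The strongest IleRS-m candidate in the pair list had a signal of 22.9 and lay 320 bp downstream of the TSS.

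Enzymes for the same amino acid were set side by side. There were 15 cytoplasmic genes with a -m counterpart, which made 16 pairs, since GluProRS has counterparts in GluRS-m and ProRS-m and PheRS-m has both PheRS subunits. Both genes had a candidate in 11 pairs, and the cytoplasmic gene had the higher percentile in 9 of these. In the pair list the gap was wide for serine, with 97.1 for SerRS and 34.1 for SerRS-m. It was also wide for valine, with 81.7 for ValRS and 4.07 for ValRS-m, and for isoleucine, with 94.4 for IleRS and 45.0 for IleRS-m. The gap ran the other way for cysteine, with 1.34 for CysRS and 66.7 for CysRS-m, and for alanine, with 17.9 for AlaRS and 37.4 for AlaRS-m. ValRS-m had no candidate in any other list, so the valine gap was seen in the pair list alone. IleRS-m stood at 68.9 in replicate 1 and had no candidate in replicate 2. The cysteine genes did not both have a candidate in either replicate. In replicate 1 the order for alanine was turned round, with 40.6 for AlaRS and 24.4 for AlaRS-m. There beta-PheRS, at 13.8, was below PheRS-m, at 52.55. The cytoplasmic gene was the higher one in 6 of 8 pairs in the conservative list, 7 of 8 in replicate 1 and 5 of 6 in replicate 2. The pairs with beta-PheRS and alpha-PheRS share PheRS-m and are not separate observations.

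The sequences under the peaks were searched for words on both strands, in windows of 201 bp centred on the summit. None of the 5 windows at aaRS genes held TATCGATA, the DREF word (in 4.46% of 785 promoter peak windows over all protein-coding genes), GGTCACAC, the motif 1 word of housekeeping promoters (1.78%), the E-boxes CAGCTG (10.4%) and CACGTG (2.29%), CATCNCTA (6.11%), GTCACGC (1.40%), part of the sequence that paired domains bind, or TGATGCAA (0.382%), the word of the stress factor ATF4. GAGAG, the word of the GAGA factor, was in the window of AsnRS alone and in 18.2% of all such windows. TATAAA was in 3 of 5 windows (AsnRS, SerRS and ThrRS), with 4 matches at SerRS, and in 39.1% of all such windows. With 5 windows, a word of low frequency is often absent, and a missing match says only that these letters are not in the window.

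All aaRS promoters were then searched, from 250 bases before the gene's start to its first 50 bases. TATCGATA was in 4 of 20 cytoplasmic promoters (AlaRS, ArgRS, IleRS and TrpRS) and in 1 of 15 -m promoters (PheRS-m), against 9.36% of all promoters. CAGCTG was in 10 of 20 cytoplasmic and 7 of 15 -m promoters, against 17.7% of all, so that this E-box was more frequent in both groups than in all promoters. GTCACGC was in 2 of 20 cytoplasmic promoters (ArgRS and MetRS) and 0 of 15 -m promoters, against 1.51% of all. TATAAA was in 12 of 20 cytoplasmic and 7 of 15 -m promoters, against 45.8% of all. GGTCACAC was in 2 of 20 cytoplasmic and 3 of 15 -m promoters, against 7.702% of all. GAGAG was in 4 of 20 and 2 of 15, against 29.72%. CACGTG was in 1 of 20 and 1 of 15, against 4.202%, and CATCNCTA in 2 of 20 and 0 of 15, against 6.418%. TGATGCAA was in 0 of 20 and 0 of 15, against 0.8175%. The words thus did not all lean to the cytoplasmic promoters, and differences between the groups were not tested. The median GC content was 35.5% in cytoplasmic, 33.3% in -m and 38% in all promoters. In the peak windows it was 30.3% at aaRS genes (range 25.4% to 36.3%) and 34.3% at all 785.

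Other genes that handle tRNAs or sense uncharged ones had peaks at a share close to that of all genes. Of 36 listed genes, 35 were matched to the annotation, and 3 of these had a promoter summit in the pair list. They made 0 of 4 aaRS partners (AIMP1, AIMP2, AIMP3 and Slimp), 1 of 3 subunits of the glutamyl-tRNA amidotransferase, 1 of 24 tRNA maturation and modification genes and 1 of 4 genes of the amino acid stress response, against 7.74% of all protein-coding genes.

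Tcs5, which encodes a kinase of the KEOPS complex that modifies tRNAs, had the strongest of these peaks, with a signal of 626.7 in the pair and conservative lists, 245.8 in replicate 1 and 384.6 in replicate 2, 103 bp upstream of its TSS. Its peak was stronger than that of any aaRS gene in every list. GatA, the amidotransferase subunit gene, had 76.0 in the pair and conservative lists and 49.1 in replicate 2, with the summit 93 bp upstream of its TSS but 19 bp from that of P5cr. Thor, which encodes the translation inhibitor 4E-BP, had 66.8 in the pair list and 44.3 in replicate 2, with the summit 41 bp upstream. Gcn2, the kinase that senses uncharged tRNA, and crc, the fly ATF4 gene, had none.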

How the data were processed

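Peak lists of 2 biological replicates, numbered as in the labels, and of the pair were used. Per the deposited notes, the authors made every list from filtered alignments and a second input common to both replicates. The aligner, the peak caller, the depth and the IDR threshold are not stated, and a control that the labels mention was not analysed here. The signal of each peak is the authors' deposited enrichment value, whose normalisation is not stated. The −log10 of the global IDR was deposited by the authors for each ranked candidate. Other deposited values used were summit offsets from the peak start.

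Genes came from Ensembl release 115 (BDGP6), with all annotated TSSs, on 6 arms, and bases from RefSeq's copy of genome release 6, which is dm6. Of 13945 genes, 13882 had ATG at the outermost coding start in that sequence. Summits within 500 bp of any TSS were assigned to a gene, so 1 summit can count for both genes of a pair. Named genes were those with a thresholded summit, the 5 highest and 3 lowest without one, and members with a summit within 2000 bp. Phenylalanine subunits, genes without any candidate, the high -m genes and the counterpart examples were named after their values were seen, and so were the classes and the word ATTGCAT. The members, gene lists and words were chosen with earlier results of these data known. Alternatives were the single replicates, the conservative list, a stricter IDR, peaks above the list's median signal, other windows and other TSS rules. Procedures were tested on simulated data (9 of 9 checks passed), with Python 3.11.15, pandas 2.3.3, numpy 2.4.6, scipy 1.17.1 and matplotlib 3.10.9.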

Additional observations from a re-analysis of the deposited data

How the results depend on the processing

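Against 5 cytoplasmic and 0 -m genes in the pair list, the count of cytoplasmic genes, and with it that of all aaRS genes, was 3 to 4 when 1 replicate was left out. It was 3 with a −log10 IDR of at least 3 (GluProRS, SerRS and ThrRS), and 3 when each summit was given only to the nearest TSS (AsnRS, IleRS and ThrRS), since GluProRS and SerRS then went to their neighbours. The share of all genes was 4.37% to 6.18% with 1 replicate left out, 3.71% with the stricter IDR, 4.68% for peaks above the list's median signal and 5.39% with the nearest TSS. The -m count was 0 in every alternative but the 1000 bp window, where it was 1 (LeuRS-m).

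The median percentile of all aaRS genes, 52.3, was 52.5 to 53.8 with 1 replicate left out, 55.2 with a 250 bp window, 61.6 with a 1000 bp window, 56.0 with the gene's 5′ end alone and 43.9 with the nearest TSS. Under the nearest TSS the cytoplasmic median was 59.6 and the -m median 39.2, and the cytoplasmic median was above the -m median in each alternative. The causes of these shifts were not tested. Read depth is unknown, so a gene without a peak is not shown to lack binding. No paired analysis was possible because there is 1 group.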

Other observations

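Synthetases fall into 2 structural classes by the fold of their catalytic domain. In the pair list, thresholded promoter summits were present at 1 of 9 cytoplasmic class I genes (IleRS), 3 of 10 class II genes (AsnRS, SerRS and ThrRS) and GluProRS, which joins both classes. The -m genes had 0 of 9 in class I and 0 of 6 in class II. Among the synthetases that form the multi-synthetase complex of mammals, 2 of 8 had a summit, against 3 of the 12 other cytoplasmic genes. These numbers are too small to set the groups apart.

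A ranked candidate was present in both replicates at 16 genes (10 cytoplasmic, 6 -m), in replicate 1 alone at 9, in replicate 2 alone at 5 and in neither at 5. Spearman's rho between the replicates' signals was 0.482 over the 16 genes, as a description of genes that share their libraries and include those called for being reproducible. Over the 11 of these genes without a thresholded summit rho was −0.500. The called genes were high in both replicates, so leaving them out tends to lower rho by construction, and nothing is concluded from the negative value. A gene's strongest candidate was also not always the same summit. At AlaRS it lay 346 bp downstream of the TSS in replicate 1 and 360 bp upstream in replicate 2.

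The strongest candidate of the aaRS genes without a thresholded summit lay upstream at 9 and downstream at 13 genes in the pair list, upstream at 10 and downstream at 10 in the conservative list, upstream at 6 and downstream at 14 in replicate 1, and upstream at 9 and downstream at 7 in replicate 2. The called summits were upstream in each list apart from that of SerRS, which was 29 bp downstream in replicate 2.

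The word ATTGCAT was noticed when the printed sequences were read, so its count at the members supports nothing. It was in 3 of 5 windows at aaRS peaks (ThrRS, IleRS and AsnRS), in 6.75% of all 785 promoter peak windows and in 3.82% of 16057 promoter candidates outside the thresholded list.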
